A study of Mus musculus with 6 samples.

Results

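The 51 chromatin regulator genes described here are a list of named genes out of 21887 protein-coding genes of the RefSeq table for the mouse build GRCm38.p6. They were chosen by name and function, not by a measured value, but with earlier results of these data known. They fall into 9 groups: Polycomb repressive complexes 2 and 1 (PRC2 and PRC1), the BAF remodelling complex, deacetylases, histone methylation enzymes, DNA methylation enzymes, acetyltransferases, CHD remodellers and architectural proteins. All 51 were found in the table. Accessible DNA was mapped by ATAC-seq, an assay that uses the Tn5 transposase to place sequencing adapters in open chromatin. The tissue was whole retina of C57BL/6 mouse embryos, taken at embryonic day E14.5. One genotype was Atoh7 SE/SE, with both copies of the Atoh7 shadow enhancer mutated (3 libraries). The other was Atoh7 +/+, called wild type here (3 libraries). A shadow enhancer is an extra enhancer whose activity overlaps that of a gene's main enhancer, and Atoh7 encodes a transcription factor needed to form retinal ganglion cells. Each library came from the pooled pair of retinas of 1 animal, and replicates are therefore biological.

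Chromatin regulators set how tightly DNA is packed and which genes can be read. Polycomb complexes mark and hold genes in a silent state, BAF and CHD proteins use ATP to move nucleosomes, deacetylases and acetyltransferases remove and add acetyl groups on histones, and DNA methyltransferases and TET enzymes write and oxidise methyl groups on cytosine. In the developing nervous system, several BAF subunits are exchanged as progenitors become neurons, and loss of PRC2 disturbs the balance of progenitors and neurons in the retina. The comparison of genotypes asks whether the open regions at these genes differ when the Atoh7 shadow enhancer is mutated.

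The SE/SE libraries held 39115, 42722 and 44242 peaks and the wild-type libraries 31340, 34797 and 27873. How deeply each library was sequenced is unknown. Per the labels' protocols, SE/SE libraries had 15, 16 and 16 PCR cycles and wild-type libraries 17, 18 and 19, so amplification, list length and genotype cannot be told apart. The genotype labels were checked at Atoh7, where 2 of 8 regions within 100 kb had a peak in 0 SE/SE and 3 wild-type libraries. Of 10 marker genes of retinal progenitors and neurons, 9 had a peak in all 6 libraries within 1 kb of an end of the gene. Six3 had one in 2 SE/SE and 2 wild-type ones. All 4 microglia and blood markers had such a peak in 0 libraries, as did the lens markers Cryaa, Cryba4 and Bfsp2, the pigment markers Tyr and Rpe65, and the endothelial markers Pecam1 and Cdh5. The endothelial marker Flt1 had one in 3 SE/SE and 0 wild-type libraries. Foxe3, a lens marker, and Prrx1, a mesenchyme marker, each had one in 3 SE/SE libraries and 1 wild-type library. The markers Mitf, Pmel, Kdr, Twist1, Foxc1 and Pdgfrb had one in all 6, and the part of such cells in the results below was not tested.

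A gene-end peak was the peak whose midpoint lay within 1 kb of either end of the gene's annotated span, and the one with the highest deposited signal value where there were several. Of the 51 genes, 43 had a gene-end peak in all 6 libraries (84.3%), against 54% of all protein-coding genes. A further 6 had one in 0 of 6 libraries, against 40.1% of all genes, and 2 had one in some libraries, against 5.87%. The number of regulator genes with a gene-end peak was 45, 44 and 44 in the SE/SE libraries and 44, 45 and 44 in the wild-type libraries, a mean of 44.3 ± 0.577 in each genotype (SD, n = 3). The ranges coincide, while over all genes 12692, 12845 and 12874 genes had one in SE/SE and 12247, 12444 and 11979 in wild type. The 2 regulator genes with one in some libraries varied in opposite directions, so the means are equal. They were Kdm6b (3 SE/SE and 1 wild-type library) and Arid1b (1 SE/SE and 3 wild-type libraries). Measured to the nearest base of the peak, the means differed by 0.667. No regulator gene had a gene-end peak in 3 libraries of one genotype and 0 of the other, which 0.827% of all genes had towards SE/SE and 0.0366% towards wild type. The smallest p over the 51 genes was 0.4 (exact two-sided permutation over 20 assignments of 6 libraries, Benjamini-Hochberg adjusted p = 1), and 3 against 3 libraries cannot give less than 0.1. Over all genes, 189 reached an exact permutation p of 0.1 and the lowest adjusted p was 1. In the authors' joint peak lists, 1 named for each genotype, 45 regulator genes had a gene-end peak in the SE/SE list and 44 in the wild-type list, with 44 in both, against 63.8% of all genes in both.

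The position of a peak was described by the percentile of its deposited signal value among all peaks of its own list, where 100 is the highest. The median over the regulator genes was 87.7, 88.7 and 89.6 in the SE/SE libraries and 86.4, 87.1 and 86.3 in the wild-type libraries. Over all genes with a gene-end peak it was 80.9, 82.3 and 82.7 in SE/SE and 77.3, 79.2 and 75.3 in wild type. Median widths of the regulator genes' peaks were 986, 1041 and 1019 bp in SE/SE and 942, 941 and 924 bp in wild type. The regulator genes with a gene-end peak thus had a median above that of all genes in each of the 6 lists. Percentiles in lists of different lengths are no measure of change, and none is read from them here.

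**Figure D1:**
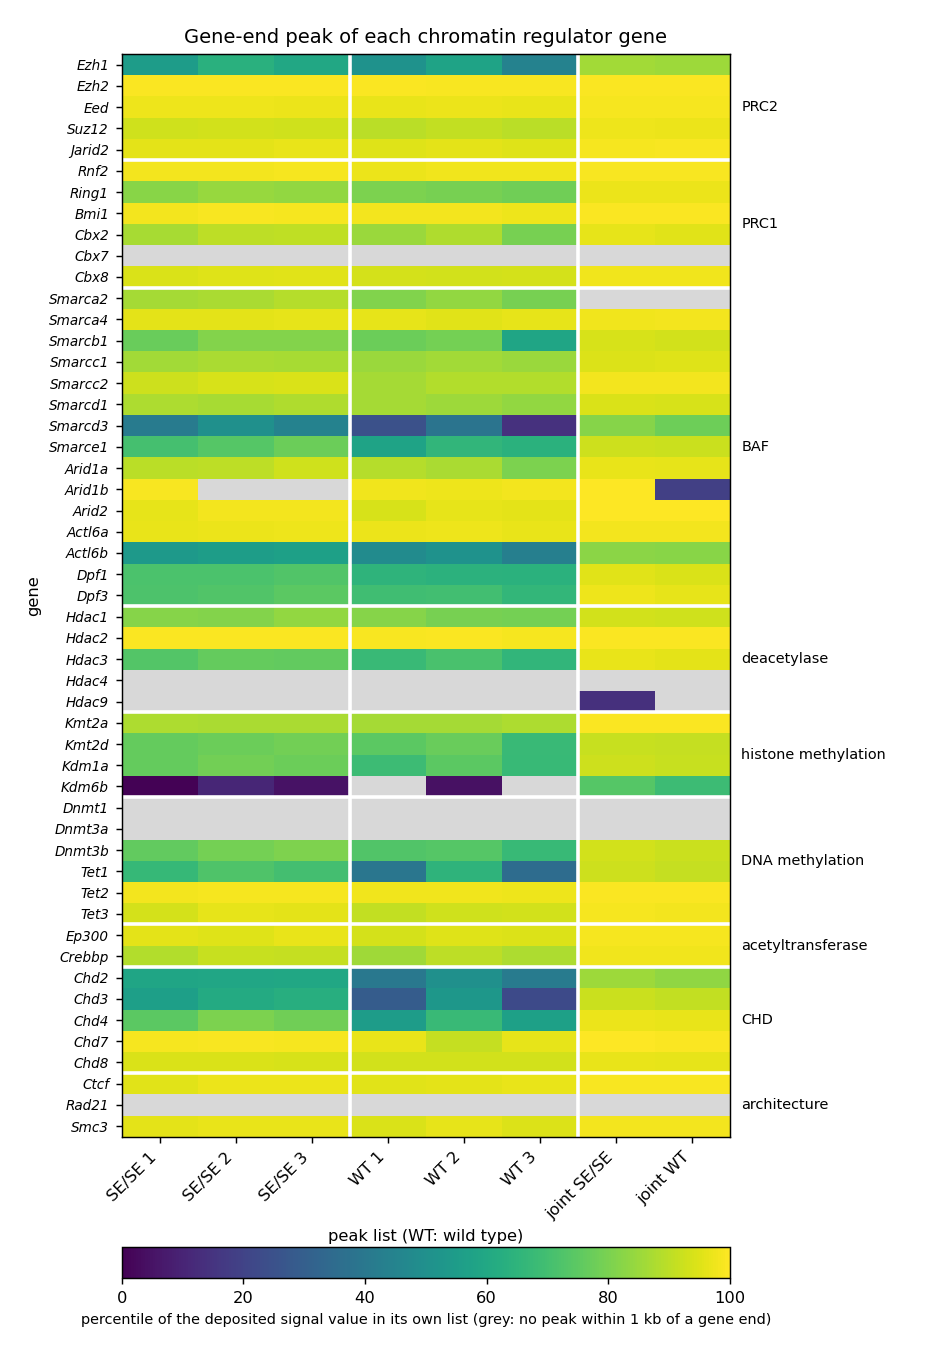
Percentile of the deposited signal value of each gene's gene-end peak (colour, 0 to 100) in the 3 SE/SE libraries, the 3 wild-type libraries and the 2 joint lists, with genes in rows by group and grey for no peak. The same genes are grey in both genotypes apart from Arid1b, Kdm6b and, in the joint SE/SE list, Hdac9.

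In PRC2, the complex that methylates histone H3 to silence genes, all 5 genes had a gene-end peak in all 6 libraries. Ezh2, the catalytic subunit of dividing cells, had the highest median percentile over the 6 libraries, with Hdac2 higher in the SE/SE median. Its peak stood at percentiles 99.3, 99.3 and 99.3 in SE/SE and 99.3, 99.1 and 99.0 in wild type, with widths of 1606, 1606 and 1616 bp in SE/SE and 1589, 1618 and 1573 bp in wild type. The widths of the genotypes overlap. Ezh1, its paralog that is used more in non-dividing cells, was the lowest of the group at 55.1, 63.6 and 60.0 in SE/SE and 51.02, 58.1 and 44.3 in wild type, with widths of 458, 471 and 489 bp in SE/SE and 399, 454 and 227 bp in wild type. Every SE/SE width of Ezh1 lay above every wild-type width, as called bases did at 63.4% of all regions open in all 6 libraries. Eed and Suz12, the core subunits, and Jarid2, which recruits the complex, lay between Ezh1 and Ezh2. Their median percentiles were 92.8 to 97.3 in SE/SE and 89.8 to 96.7 in wild type.

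The Ezh2 promoter is shown as that of the gene with the highest median over the 6 libraries. It is given as the 250 bases before the annotated start, 5′ to 3′ on the minus strand (chr6:47595031-47595280, GRCm38.p6, from RefSeq), with every CG dinucleotide in capitals, as in all sequences here. It holds 23 CG dinucleotides.
Ezh2: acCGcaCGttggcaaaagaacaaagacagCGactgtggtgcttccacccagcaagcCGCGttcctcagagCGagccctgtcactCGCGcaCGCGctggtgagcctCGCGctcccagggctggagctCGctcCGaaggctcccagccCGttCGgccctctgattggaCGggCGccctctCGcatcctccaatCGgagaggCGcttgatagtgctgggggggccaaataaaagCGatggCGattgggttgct

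In PRC1, which places ubiquitin on histone H2A, 5 of 6 genes had a gene-end peak in all 6 libraries. Bmi1, a core subunit needed for stem cell self-renewal, was highest at percentiles of 98.4, 98.9 and 98.8 in SE/SE and 98.1, 98.2 and 97.3 in wild type. Rnf2, the main ubiquitin ligase subunit, had median percentiles of 98.4 in SE/SE and 97.9 in wild type. Ring1, the paralog of Rnf2, was lowest at 82.1, 84.4 and 83.7 in SE/SE and 80.2, 79.7 and 78.2 in wild type. Cbx2 and Cbx8, subunits that bind methylated histone H3, lay between, at median percentiles of 89.97 and 95.1 in SE/SE and 85.0 and 93.4 in wild type. Cbx7, another such subunit, had a gene-end peak in 0 of 6 libraries. Its RefSeq start lies inside the gene span, and the region over it (chr15:79932323-79932909) had 402, 570 and 586 bp of called peak in SE/SE and 206, 536 and 321 bp in wild type. The ranges overlap, and the start of Cbx7 was thus open in all 6 libraries.

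The BAF complex was the largest group, and 14 of its 15 genes had a gene-end peak in all 6 libraries. One pair of subunits that is exchanged between progenitors and neurons is Actl6a and Actl6b. Actl6a, the actin-like subunit of progenitors, was at percentiles of 96.8, 97.2 and 97.4 in SE/SE and 97.0, 97.5 and 96.6 in wild type. Actl6b, its neuronal counterpart, was at 53.8, 55.6 and 57.0 in SE/SE and 48.1, 51.02 and 43.1 in wild type. Actl6b thus stood below Actl6a in each of the 6 libraries. Dpf1 and Dpf3, plant-homeodomain subunits of neuronal BAF complexes, were at median percentiles of 71.8 and 72.7 in SE/SE and 64.4 and 69.2 in wild type. Their progenitor counterparts Phf10 and Dpf2 each had a gene-end peak in 6 of 6 libraries. For another exchanged pair outside the list, neuronal Ss18l1 had a gene-end peak in 6 of 6 libraries and progenitor Ss18 in 0. RefSeq starts inside the gene span were not examined for this pair, so the 0 does not show that Ss18 was closed.

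Smarcd1, a subunit of the complex in many tissues, was at 87.7, 87.1 and 88.3 in SE/SE and 86.5, 85.5 and 83.7 in wild type. Smarcd3, its paralog in heart and neural tissue, had the lowest gene-end peak of the group, at 41.7, 50.1 and 44.4 in SE/SE and 25.0, 38.6 and 14.4 in wild type, with widths of 225, 242 and 345 bp in SE/SE and 155, 249 and 146 bp in wild type. The width ranges overlap. This peak lies at the upstream end of the annotated span, whereas the RefSeq start of Smarcd3 lies inside it. The region over that start (chr5:24601894-24602363) had 457, 457 and 457 bp of called peak in SE/SE and 440, 426 and 403 bp in wild type, at percentiles of 65.5, 67.6 and 68.9 in SE/SE and 60.7, 62.3 and 52.9 in wild type. Smarcd3 therefore stood below Smarcd1 by either measure in all 6 libraries.

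The ATPases of the complex were Smarca4, at median percentiles of 95.9 in SE/SE and 96.2 in wild type, and Smarca2, at 87.3 in SE/SE and 81.1 in wild type. Smarca2 had a gene-end peak in all 6 libraries but in neither joint list, where a peak of 3730 bp (SE/SE) or 3645 bp (wild type) covers its start and has its midpoint beyond 1 kb. Arid2, the DNA-binding subunit of the related PBAF complex, stood at 96.4, 98.3 and 98.4 in SE/SE and 94.0, 96.3 and 95.8 in wild type. Arid1a, the subunit that defines canonical BAF complexes, stood at median percentiles of 90.1 in SE/SE and 87.1 in wild type. The core and scaffold subunits Smarcb1, Smarcc1, Smarcc2 and Smarce1 ranged over median percentiles of 73.8 to 93.8 in SE/SE and 64.0 to 88.4 in wild type.

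Arid1b, the alternative to Arid1a, was the BAF gene without a gene-end peak in every library. It had one in 1 SE/SE and 3 wild-type libraries by midpoint, a pattern with more wild-type than SE/SE libraries that 0.503% of all genes had. The peak itself was present in all 6 libraries (chr17:4993916-4996796) and covers the RefSeq start, with 2599, 2873 and 2836 bp called in SE/SE and 2396, 2505 and 2522 bp in wild type. In SE/SE 2 and 3 the wider peak puts the midpoint just beyond 1 kb of the gene end. Measured to the nearest base of the peak, Arid1b had a gene-end peak in 6 of 6 libraries, so the difference in presence is one of midpoint position.

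Among the deacetylases, Hdac1, Hdac2 and Hdac3 had a gene-end peak in all 6 libraries and Hdac4 and Hdac9 in 0. Hdac2, a catalytic subunit of several corepressor complexes, stood at 99.2, 99.3 and 99.3 in SE/SE and 99.1, 99.2 and 98.8 in wild type, with widths of 1566, 1582 and 1590 bp in SE/SE and 1476, 1570 and 1548 bp in wild type. Hdac1, its close paralog, had median percentiles of 81.8 in SE/SE and 79.6 in wild type. Hdac3, the catalytic subunit of the NCoR complex, was lowest of the class I enzymes among the 51 genes. It stood at 73.1, 76.3 and 75.9 in SE/SE and 67.8, 71.2 and 65.6 in wild type. Hdac2 thus lay above both in each genotype.

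The class IIa deacetylases Hdac4 and Hdac9, which shuttle between nucleus and cytoplasm, are long genes with starts inside their spans. The region over the RefSeq start of Hdac4 (chr1:92179598-92181207) had 1551, 1587 and 1579 bp of called peak in SE/SE and 1491, 1576 and 1404 bp in wild type, at percentiles of 98.7, 99.0 and 99.1 in SE/SE and 99.1, 98.8 and 99.1 in wild type. It ranks with the peaks of Ezh2 and Hdac2. Hdac9 has 2 RefSeq starts, 388 kb apart. The upstream start had no peak in any of the 6 libraries and, in the joint lists, a peak of 115 bp in the SE/SE list only. The inner start lies in a region (chr12:34528271-34529411) with 898, 943 and 1103 bp called in SE/SE and 700, 892 and 464 bp in wild type. It was thus open in all 6 and every SE/SE value was the higher, as at 63.4% of all regions open in all 6 libraries. A further region 10.1 kb inside the upstream end (chr12:34906511-34907515) had 839, 949 and 996 bp in SE/SE and 787, 839 and 772 bp in wild type, with no RefSeq window over it.

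The 250 bases before each Hdac9 start are shown because the closed and the open start are both poor in CG dinucleotides, with 0 before the upstream start (chr12:34917096-34917345) and 2 before the inner start (chr12:34528890-34529139), each on the minus strand. This pair was chosen after its values were seen.
Hdac9 upstream start: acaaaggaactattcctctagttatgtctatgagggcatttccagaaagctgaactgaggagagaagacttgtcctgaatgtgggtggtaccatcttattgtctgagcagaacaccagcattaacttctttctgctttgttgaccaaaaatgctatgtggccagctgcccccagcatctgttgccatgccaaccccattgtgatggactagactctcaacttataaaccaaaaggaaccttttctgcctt
Hdac9 inner start: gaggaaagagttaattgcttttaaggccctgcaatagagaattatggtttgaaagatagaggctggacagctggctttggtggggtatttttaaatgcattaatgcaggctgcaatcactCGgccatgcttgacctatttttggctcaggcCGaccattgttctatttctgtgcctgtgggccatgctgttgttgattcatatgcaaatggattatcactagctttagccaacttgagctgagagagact

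Of the histone methylation enzymes, Kmt2a, Kmt2d and Kdm1a had a gene-end peak in all 6 libraries. Kmt2a, a methyltransferase that keeps Hox genes active, was the highest, at 87.5, 87.3 and 87.3 in SE/SE and 86.4, 86.3 and 87.5 in wild type. Kmt2d, an enhancer methyltransferase, and Kdm1a, a demethylase of corepressor complexes, had median percentiles of 77.7 and 77.4 in SE/SE and 74.9 and 68.5 in wild type. The gene-end peak of Kmt2d lies at the downstream end, and a region that overlaps its RefSeq promoter window (chr15:98871290-98872411), beginning just upstream of the start, also had a peak in all 6 libraries, at percentiles of 82.3, 83.0 and 83.0 in SE/SE and 66.2, 79.3 and 75.2 in wild type.

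Kdm6b, a demethylase that removes the Polycomb mark, had the lowest gene-end peaks of the list. They stood at percentiles of 0.675, 10.7 and 4.95 in SE/SE, and at 4.42 in wild type 2, with widths of 100, 144 and 99 bp in SE/SE and 126 bp in wild type 2. The other two wild-type libraries had none, a pattern with more SE/SE than wild-type libraries that 5.19% of all genes had. These peaks are near the lowest signal that the lists hold. Inside Kdm6b, in contrast, 8 regions had a peak in all 6 libraries, and 2 of those stood at median percentiles of 80.3 and 81.2 (chr11:69417492-69418286 and chr11:69418482-69419375).

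The DNA methylation enzymes divided by whether the upstream end of the gene is open. Dnmt3b, a methyltransferase of early development, and the TET oxidases Tet1, Tet2 and Tet3 had a gene-end peak in all 6 libraries. Tet2 was highest at 98.3, 98.6 and 98.6 in SE/SE and 97.7, 98.0 and 97.5 in wild type. Tet1 was lowest at 67.1, 72.5 and 70.0 in SE/SE and 39.4, 65.0 and 35.5 in wild type. In wild type 1 and 3 the Tet1 region was called as 2 separate peaks, and its summed bases were 757, 743 and 774 bp in SE/SE and 587, 664 and 500 bp in wild type. Each SE/SE value was above each wild-type value, as at 63.4% of all regions open in all 6 libraries. Tet3 and Dnmt3b stood at median percentiles of 96.0 and 79.1 in SE/SE and 92.9 and 73.0 in wild type.

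Dnmt1, the maintenance methyltransferase, and Dnmt3a, a de novo methyltransferase of neural tissue, had a gene-end peak in 0 of 6 libraries, and both were open at starts inside the gene. Mouse Dnmt1 is known to use an oocyte promoter besides the somatic one. Of its 3 RefSeq starts, the most upstream had no peak in any of the 8 lists. The other two, 6.91 and 7.26 kb further in, share a region (chr9:20952238-20953175) with peaks of 880, 938 and 868 bp in SE/SE and 838, 862 and 829 bp in wild type. Every SE/SE width was above every wild-type width, as called bases were at 63.4% of all regions open in all 6 libraries. Percentiles were 89.7, 89.4 and 89.0 in SE/SE and 88.2, 89.8 and 87.9 in wild type. Across Dnmt1 this was the only region more than 1 kb from its ends.

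Dnmt3a is known to make a long and a short protein from separate promoters. Its starts at 5.42 and 5.601 kb share a region (chr12:3806268-3808836) with peaks of 2112, 2366 and 2569 bp in SE/SE and 2122, 2114 and 2083 bp in wild type. The start at 90.2 kb lies in a smaller region (chr12:3891305-3892161) with peaks of 792, 833 and 818 bp in SE/SE and 697, 857 and 787 bp in wild type. Both ranges overlap between genotypes. The first stood at percentiles of 95.3, 96.3 and 97.0 in SE/SE and 93.8, 93.9 and 91.5 in wild type, and the inner one at 70.2, 73.0 and 73.9 in SE/SE and 64.1, 70.8 and 61.5 in wild type. The inner start was the lower in all 6 libraries.

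**Figure D2:**
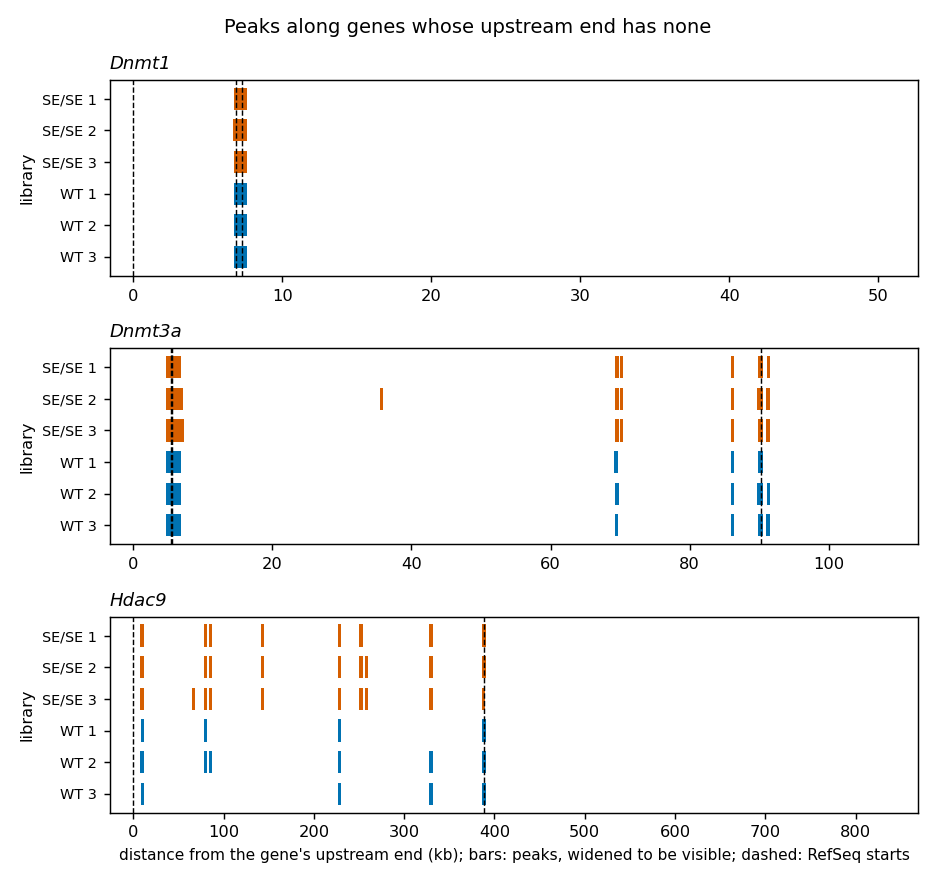
Called peaks (bars, one row per library, SE/SE above wild type) along Dnmt1, Dnmt3a and Hdac9, by distance in kb from the upstream end of the gene span, with RefSeq starts as dashed lines. The upstream starts of Dnmt1 and Hdac9 at 0 kb have no bar in any row, and the starts at 6.91 kb, 5.42 kb, 90.2 kb and 388 kb have one in every row.

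The sequences before these starts are shown so that closed and open starts can be compared. For Dnmt1 (minus strand), the 250 bases before the closed upstream start (chr9:20959889-20960138) hold 2 CG dinucleotides, those before the first open start (chr9:20952980-20953229) hold 7 and those before the second (chr9:20952624-20952873) hold 26. The Dnmt1 set was chosen after its values were seen.
Dnmt1 upstream start: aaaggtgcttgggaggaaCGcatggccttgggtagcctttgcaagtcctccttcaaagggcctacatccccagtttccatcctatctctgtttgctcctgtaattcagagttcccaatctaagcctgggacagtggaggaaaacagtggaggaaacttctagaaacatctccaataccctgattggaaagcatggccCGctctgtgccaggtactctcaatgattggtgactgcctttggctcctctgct
Dnmt1 first inner start: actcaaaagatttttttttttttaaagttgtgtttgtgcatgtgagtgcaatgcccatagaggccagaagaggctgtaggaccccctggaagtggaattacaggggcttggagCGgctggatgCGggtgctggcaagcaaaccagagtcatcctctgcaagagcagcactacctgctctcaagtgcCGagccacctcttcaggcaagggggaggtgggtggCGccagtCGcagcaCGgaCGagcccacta
Dnmt1 second inner start: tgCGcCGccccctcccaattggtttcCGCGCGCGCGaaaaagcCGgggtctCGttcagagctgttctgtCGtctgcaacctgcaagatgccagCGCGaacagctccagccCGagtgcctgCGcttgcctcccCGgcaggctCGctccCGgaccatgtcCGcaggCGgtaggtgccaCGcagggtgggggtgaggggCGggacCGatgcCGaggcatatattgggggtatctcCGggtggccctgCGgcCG

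For Dnmt3a and Dnmt3b (plus strand), paralogs of which only Dnmt3b had a gene-end peak, the windows are chr12:3806730-3806979 with 38 CG dinucleotides, chr12:3891494-3891743 with 15, and chr2:153649199-153649448 with 21. All of them had a peak in 6 of 6 libraries.
Dnmt3a first start: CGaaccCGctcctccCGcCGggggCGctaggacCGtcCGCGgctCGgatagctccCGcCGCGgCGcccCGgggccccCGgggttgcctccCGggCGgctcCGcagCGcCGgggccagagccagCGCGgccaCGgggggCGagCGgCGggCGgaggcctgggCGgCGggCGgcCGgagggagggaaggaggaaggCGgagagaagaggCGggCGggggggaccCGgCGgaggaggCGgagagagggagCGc
Dnmt3a inner start: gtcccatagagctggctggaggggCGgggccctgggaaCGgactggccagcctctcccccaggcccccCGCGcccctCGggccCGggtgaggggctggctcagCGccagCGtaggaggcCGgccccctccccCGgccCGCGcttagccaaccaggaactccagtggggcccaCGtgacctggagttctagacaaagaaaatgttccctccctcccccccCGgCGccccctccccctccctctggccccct
Dnmt3b: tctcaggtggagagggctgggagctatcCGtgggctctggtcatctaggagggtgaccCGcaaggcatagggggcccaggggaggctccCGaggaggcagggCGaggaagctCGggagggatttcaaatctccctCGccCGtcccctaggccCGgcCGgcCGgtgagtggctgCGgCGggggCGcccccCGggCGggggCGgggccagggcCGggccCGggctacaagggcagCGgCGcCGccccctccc

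Both acetyltransferases, Ep300 and Crebbp, coactivators found at active enhancers, had a gene-end peak in all 6 libraries. Ep300 stood at 96.0, 95.2 and 96.8 in SE/SE and 93.7, 95.2 and 94.6 in wild type, and Crebbp at 88.4, 91.7 and 91.2 in SE/SE and 85.6, 90.2 and 87.8 in wild type. Neither had any other region assigned to it.

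All 5 CHD genes had a gene-end peak in all 6 libraries, with median percentiles from 59.3 to 98.7 in SE/SE and from 29.2 to 96.5 in wild type. Chd7, a remodeller of neural and neural crest development, was highest at 98.7, 99.1 and 98.7 in SE/SE and 96.8, 91.3 and 96.5 in wild type. Chd8, a remodeller linked to brain growth, had median percentiles of 94.2 in SE/SE and 93.0 in wild type. Chd2, which deposits the histone variant of active genes, stood at 58.8, 59.3 and 59.5 in SE/SE and 40.1, 50.02 and 41.7 in wild type, with widths of 344, 517 and 357 bp in SE/SE and 259, 301 and 180 bp in wild type. Its SE/SE widths were all above its wild-type widths, as called bases were at 63.4% of all regions open in all 6 libraries.

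Chd4 and Chd3 are ATPases of the NuRD complex, which joins remodelling to deacetylation. The highest Chd4 peak measured 1402, 1570 and 1401 bp in SE/SE and 490, 493 and 492 bp in wild type, without overlap, at percentiles of 75.0, 80.4 and 78.4 in SE/SE and 55.2, 67.9 and 56.8 in wild type. In the wild-type libraries the same region (chr6:125095792-125097378) was called as separate shorter peaks, whose summed bases were 1023, 890 and 695 bp, against 1402, 1570 and 1401 bp in SE/SE. The genotypes did not overlap by the summed bases either, and the test of this difference is given with the widths below. Every SE/SE library also exceeded every wild-type library in summed bases at 63.4% of all regions open in all 6 libraries. For Chd3, the lowest of the group in wild type, peaks measured 532, 709 and 758 bp in SE/SE and 158, 644 and 190 bp in wild type, at percentiles of 56.4, 60.9 and 62.8 in SE/SE and 29.2, 52.9 and 22.4 in wild type. The widths overlap because of wild type 2.

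Of the architectural genes, Ctcf, the factor that anchors chromatin loops, and Smc3, a cohesin subunit, had gene-end peaks in all 6 libraries. Ctcf stood at 95.4, 97.2 and 97.0 in SE/SE and 95.7, 95.9 and 96.8 in wild type, and Smc3 at 96.0, 96.5 and 96.7 in SE/SE and 94.4, 96.3 and 94.6 in wild type. Rad21, the cohesin subunit that closes the ring, had none within 1 kb. A region 2.03 kb inside its higher-coordinate end (chr15:51990978-51992045) had 1051, 1056 and 1068 bp of called peak in SE/SE and 1033, 1049 and 1047 bp in wild type, at percentiles of 95.6, 96.2 and 95.6 in SE/SE and 96.1, 94.7 and 94.8 in wild type. This region is also within 1 kb of an end of the gene Gm52217.

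RefSeq promoter windows, the 250 bases before and 50 after an annotated start, were found for 41 of the 51 genes, 49 windows in all. A peak overlapped 47 of them in 6 of 6 libraries (95.9%), against 52.9% of all 21263 windows of protein-coding genes, and 2 in 0 of 6 libraries, against 41.8%. The 2 were the upstream starts of Dnmt1 and Hdac9, and each of the 41 genes had at least 1 window open in all 6 libraries, against 55.6% of the 17492 protein-coding genes with a window. Of 6 regulator genes with several windows, 2 had an open and a closed one (33.3%), against 31.4% of 2761 such genes. The 10 genes with no window in the table were Cbx2, Smarce1, Arid2, Hdac1, Hdac3, Kdm6b, Chd2, Chd3, Chd7 and Rad21. Counted by a gene-end peak or an open window, 49 of 51 regulator genes were open in all 6 libraries, against 58.3% of all protein-coding genes, the exceptions being Kdm6b and Rad21, an alternative chosen after seeing the data. Neither exception has a window in the table, so this count does not show them closed.

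The regulator windows held a median of 30 CG dinucleotides and 68% G and C, against 13 and 56.3% over all windows. Open windows of all genes held a median of 23 and closed ones 3. Of 9 motifs searched on both strands, GGGCGG was in 83.7% of the regulator windows and 46.2% of all windows, and in 71.2% of all open windows. CCAAT was in 36.7% of the regulator windows and 38.2% of all, TATAAA in 4.08% and 12.6%, CAGCTG in 18.4% and 15.6%, and CAGATG in 8.16% and 14.6%. TGACGTCA was in 2.04% and 2.23% and CATATG in 4.08% and 3.19%, in the same order. The binding motif of NRF1 was in 4.08% of the regulator windows, 1.33% of all and 2.37% of all open windows. That of YY1 was in 2.04%, 0.889% and 1.65% of these. The NRF1 motif was in 2 regulator windows, both of Dnmt1, and the YY1 motif in 1, that of Smarcd1. GGGCGG can be part of longer GC-rich runs, and windows of 1 gene can overlap, as those of Dnmt3a do. These are descriptions of letters in the windows, not of bound factors.

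Away from their gene ends, the regulator genes held 175 other regions. Of these, 125 lay inside the regulator gene and 50 outside it, where its end was the nearest of protein-coding genes within 100 kb. A peak in all 6 libraries was found at 78 of the 175 (44.6%), against 41% over the other regions of all genes, counted as gene-region pairs. The regions with a peak numbered 133, 159 and 159 in the SE/SE libraries and 98, 115 and 84 in the wild-type libraries, means of 150.3 ± 15.0 and 99 ± 15.5 (SD, n = 3 each). Every SE/SE library held more than every wild-type library, a ratio of 1.52, and over all genes the ratio was 1.62. With every list cut to its 27873 highest peaks, the length of the shortest, the counts were 85, 91 and 95 in SE/SE and 90, 85 and 84 in wild type, which overlap, with a ratio of 1.05 against 1.09 over all genes. At equal list length the genotypes thus overlapped for the regulator genes. Over all genes they did not, with 14698, 15037 and 15016 regions in SE/SE and 13677, 14307 and 13251 in wild type.

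Presence in 3 SE/SE and 0 wild-type libraries made a region SE/SE-specific. This held for 15 of the 175 regions (8.57%), against 10.5% over the other regions of all genes, and 0 were wild-type-specific, against 0.0396%. All 15 had a peak in both joint lists, the wild-type one included, as had all 3849 SE/SE-specific regions of the data. Leaving out wild type 2 raised the count to 29 and leaving out SE/SE 1 raised it to 25, and with lists of equal length 1 remained of 109 regions (0.917%, against 1.87% over all genes). The 15 regions were low in their lists, with a median percentile of 16.7 in SE/SE, against 19.0 over all 3849 SE/SE-specific regions, and none of the 15 was above 41.1.

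By gene, Chd7 held 4 of these regions, Arid1b 3, Hdac9 2, and Chd4, Dnmt3a, Dnmt3b, Dpf1, Hdac4 and Smarcd3 1 each. The highest was inside Chd7 (chr4:8725562-8725846), with peaks of 265, 280 and 284 bp in SE/SE and none in wild type, at percentiles of 33.9, 45.8 and 41.1. The next was inside Hdac9 (chr12:34774100-34774451), with 112, 351 and 336 bp in SE/SE and none in wild type, at 2.58, 36.3 and 37.7. SE/SE 1 was thus near the lowest peaks of its list there. In Arid1b (chr17:5324557-5324870) the peaks measured 256, 269 and 303 bp in SE/SE, at 27.2, 34.6 and 36.9. The one in Chd4 (chr6:125098602-125098776) had 162, 167 and 170 bp in SE/SE, and the one in Dpf1 (chr7:29309271-29309648) had 144, 296 and 378 bp.

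**Figure D3:**
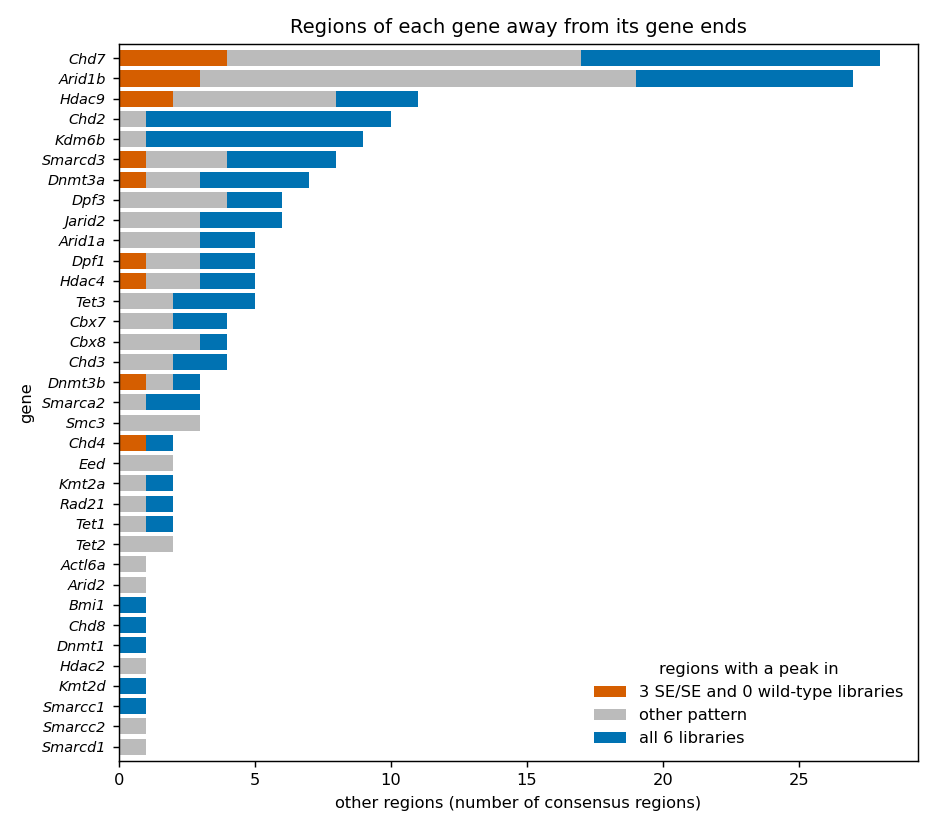
Number of other regions of each gene that has any, split into those with a peak in 3 SE/SE and 0 wild-type libraries, those with a peak in all 6, and the rest. Chd7 with 28 and Arid1b with 27 hold the most, and 9 of 10 at Chd2 and 8 of 9 at Kdm6b are in all 6 libraries.

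The other regions were unevenly spread, with 35 of the 51 genes holding any. Chd7 had 28 and Arid1b 27, followed by Hdac9 with 11, Chd2 with 10 and Kdm6b with 9. At Chd2, 9 of the 10 lie outside the gene, among them 2 with median percentiles of 97.3 and 97.7 (chr7:73557780-73559114 and chr7:73617866-73619147). Only protein-coding genes were used to place regions, so a region outside may lie at a noncoding gene, which was not examined. Per 100 kb of gene, the regulator genes held 2.82 regions inside, against 1.72 over all genes and 25.0 over the retinal markers. Gene lengths differ, with Kdm6b at 41.2 per 100 kb and Hdac9 at 1.27. By group, the SE/SE means over the wild-type means were 1.61 for Polycomb, 1.67 for BAF, 1.84 for deacetylases, 1.06 for histone methylation, 1.43 for DNA methylation and 1.44 for CHD. These group ratios rest on few regions, from 12 for histone methylation to 59 for BAF, and their differences were not tested.

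The width of peaks was compared over the 24370 regions open in every library, 125 of them at regulator genes. A region's value was the sum of called bases in it. At 72 of the 125 regions (57.6%) every SE/SE value was above every wild-type value, against 63.4% over all regions, and at 0 every SE/SE value was below, against 0.238%. All 47 regulator gene-end regions had a higher median in SE/SE, as had 98.8% of all gene-end regions, and the median ratio was 1.15, against 1.14 over all gene-end regions. Median widths over all regions were 521, 570 and 574 bp in SE/SE and 432, 478 and 403 bp in wild type. In regions open in every library the called bases at regulator genes thus followed those of all regions. Over all peaks of a list, the median width was 295, 294 and 289 bp in SE/SE and 303, 301 and 322 bp in wild type.

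**Figure D4:**
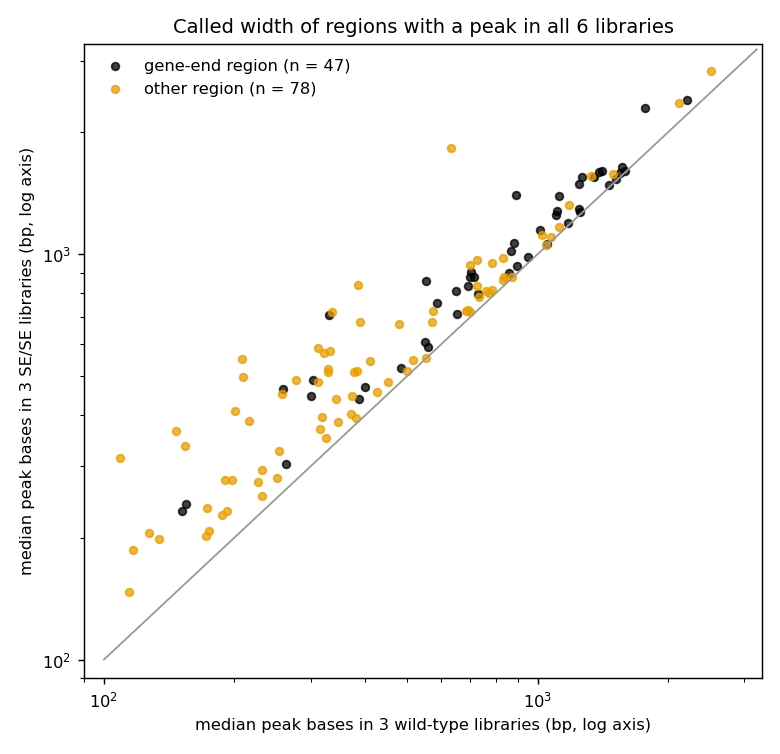
Median of called bases in the 3 SE/SE libraries (vertical, log axis) against the 3 wild-type libraries (horizontal, log axis) for the 47 gene-end and 78 other regions of the regulator genes with a peak in all 6 libraries, with a line at equality. Of the 125 points, 124 lie above the line, as do 98.1% of all 24370 regions.

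Relative to each library's median width, limma called 2 of the 125 regions wider in SE/SE (2.01% over all regions) and 1 narrower (0.304% over all regions), at a Benjamini-Hochberg adjusted p under 0.05 over the 24370. A region inside Kdm6b (chr11:69415822-69416454) had 578, 588 and 633 bp in SE/SE and 295, 312 and 316 bp in wild type. Its change was 0.62 ± 0.10 on the log2 scale (standard error, n = 3 each, limma adjusted p = 0.0286). A region inside Dpf3 (chr12:83302275-83303168) had 666, 894 and 839 bp in SE/SE and 373, 489 and 386 bp in wild type, a change of 0.60 ± 0.11 (limma adjusted p = 0.0383). Neither region's ranges overlap between genotypes. With the replicate number as a block the limma adjusted p was 0.0703 for Kdm6b and 0.0517 for Dpf3. With quantile normalisation it was 0.0520 for Kdm6b (limma), and both calls also end without SE/SE 2 or without SE/SE 3.

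The narrower call was the gene-end region of Jarid2 (chr13:44729800-44731403), with 1474, 1481 and 1487 bp in SE/SE and 1459, 1590 and 1444 bp in wild type. The raw widths overlap and their ratio was 0.99. The log2 change was -0.36 relative to the library medians (limma adjusted p = 0.0361) and -0.02 without centring (limma adjusted p = 0.746). Centring moved the median change of all regions to -0.09, against 0.25 without it, so a region of equal raw width counts as narrower. Without centring 13 of the 125 regulator regions were wider, against 13.6% of all regions, and 0 narrower, against 0.0287%. The Jarid2 call also ended with the replicate block (limma adjusted p = 0.104) and with quantile normalisation (limma adjusted p = 0.0687).

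Other regulator regions with a small unadjusted p missed the threshold. A second Kdm6b region (chr11:69415239-69415638) had 386, 367 and 352 bp in SE/SE and 206, 139 and 147 bp in wild type (log2 change 0.84, limma adjusted p = 0.0582). The summed bases of the Chd4 gene-end region differed by 0.42 on the log2 scale (limma adjusted p = 0.0618), those of Hdac3 by 0.32 (limma adjusted p = 0.0596) and those of Chd2 by 0.51 (limma adjusted p = 0.0821). On the narrower side, the gene-end regions of Ezh2 (-0.33), Smarca4 (-0.33), Ep300 (-0.33), Smc3 (-0.31) and Rnf2 (-0.33) each had a limma adjusted p of 0.0582. Their raw ratios lay between 1.01 and 1.03, so these wide promoters had nearly equal called bases in both genotypes.

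A list of 96 other genes of the same pathways was described in the same way. Of these, 80 had a gene-end peak in all 6 libraries (83.3%), against 54% of all protein-coding genes. A further 8 had one in some libraries, against 5.87%, and 8 in none, against 40.1%. Among the last were the DNA methyltransferase cofactor Dnmt3l and the cohesin genes Nipbl, Stag1 and Wapl. RefSeq starts inside the gene span were not examined for the 96 genes. None of these counts therefore shows a closed gene, only the lack of a gene-end peak. By group, 21 of 22 Polycomb genes, 13 of 15 BAF genes, 14 of 16 deacetylase genes, 15 of 18 histone methylation genes and 4 of 5 CHD genes had one in all 6. The shares were lower for acetyltransferases and for architecture, with 4 of 7 genes each (57.1%), and 5 of 6 DNA methylation genes had one. Chd5, a neuronal CHD gene, had one in 2 SE/SE and 0 wild-type libraries and was the exception of its group. The 96 genes had 182 other regions, 21 of them SE/SE-specific (11.5%), against 10.5% over the other regions of all genes. None was wild-type-specific, against 0.0396%.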

How the data were processed

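The authors deposited 8 narrowPeak lists, 1 per library and 2 joint lists named for a genotype. Column 7 is the authors' deposited signal value, with a lowest value of 20.0 and no stated scaling between libraries, and was used only within a list. The positions in the other columns are those of the deposited lists. Per the submitters' processing notes, the build was GRCm38 (mm10) and the tools included Genrich 0.5, BWA, cutadapt, limma and bedtools 2.27.0, with no roles given. Trimming, Tn5 shift and duplicate removal are not given in the sources used here. No read counts were analysed, so depth is unknown. Peaks sharing 1 bp or more across the 6 libraries were merged into 46780 regions. Gene spans and starts came from RefSeq GRCm38.p6. A region was assigned to every protein-coding gene it lies in and to the protein-coding gene with the nearest end within 100 kb. A region outside a gene can thus lie inside another gene and count for both. Counts of other regions over all genes are therefore counts of gene-region pairs. Noncoding genes were not used.

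Presence was tested by exact permutation and log2 called bases, centred on each library's median, by limma 3.58.1 with a trended prior (R 4.3.3), each over the whole table with Benjamini-Hochberg adjustment. Python 3.11.15 did the rest. On simulated widths in 24370 regions the fit called 34 of 100 regions changed by 0.5 on the log2 scale, 60 of 100 changed by 1, and 1 of 24170 unchanged. The simulated widths had independent noise and no shift common to a genotype, unlike the real ones. These counts therefore do not give the error rate of the fit on the real widths. All 51 genes are named, with percentiles per library for the highest and lowest of each group. For genes without 6 gene-end peaks, percentiles, called bases or both are given per library. Values of regions with a small p or specific to a genotype are given only in part. Members and lists were chosen with earlier results of these data known. The deviations of same-numbered libraries correlated at 0.0197, 0.0614 and -0.0649, so the numbers were not taken to pair the libraries. Alternatives covered the distance, list length, signal minimum, reach, overlap, scaling, replicate block and each library left out.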

Additional observations from a re-analysis of the deposited data

How the results depend on the processing

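Of 89 values under the alternatives, 63 stayed within 1 SD or 1.5 times of the value given. The 43 genes with a gene-end peak in all 6 libraries were 43 in every setting that left out 1 library, 37 with a window of 500 bp, 45 with 2 kb, 44 by the nearest base, and 49 with RefSeq windows counted, a setting chosen after seeing the data. The SE/SE minus wild-type difference in genes with a gene-end peak (0) was 0.667 by the nearest base, -0.667 with a signal value of at least 40 and -0.667 with lists of equal length, and ranged over -0.333 to 0.333 with 1 library left out. The difference in other regions (51.3) was 4 with lists of equal length and ranged over 43.8 to 60 with 1 library left out. The 15 SE/SE-specific regions were 1 with lists of equal length and ranged over 15 to 29 with 1 library left out. The wild-type-specific count ranged over 0 to 0.

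Regions wider in SE/SE (2) numbered 13 without centring (3322 of all regions), 1 with quantile normalisation, 1 with a signal value of at least 40, 9 at an adjusted p under 0.1 (1691 of all), and 0 to 11 with 1 library left out (11 without wild type 2, where 1955 of all were, 1 without wild type 3, and 0 without SE/SE 2 or without SE/SE 3). Regions narrower (1) numbered 0 without centring, 0 with quantile normalisation, 33 at an adjusted p under 0.1 (5086 of all), and 0 to 32 with 1 library left out (32 without wild type 2, where 4933 of all were, 0 without any other library). With the replicate block, 0 were wider and 0 narrower, the other regions differed by 51.3 within pairs and the gene-end count by 0. The causes were not tested. Peak lists without read counts limit all of these values, since a missing peak can be a region just under the calling threshold.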
